A study of Homo sapiens with 6 samples.

Results

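Lysosome and autophagy genes were followed in A549 cells after induced knockdown of CNOT3, part of the CCR4-NOT deadenylase, which trims poly(A) tails and so speeds mRNA decay. The 39 genes were taken by name, and 38 of them had a probe set annotated to that gene alone, out of 19775 genes with such a probe set on the array. The exception was GLB1, the lysosomal β-galactosidase, whose probe set is annotated together with TMPPE and was not used here. A549 is a human lung adenocarcinoma line, and 3 stable lines of it, A549-T-shNTC, A549-T-shCNOT3-1 and A549-T-shCNOT3-2, each carried a tetracycline-inducible short hairpin RNA (shRNA). The first hairpin is a non-targeting control (shNTC) and the others (shCNOT3-1 and shCNOT3-2) are directed at CNOT3. Each line was grown without doxycycline (DOX) and with 1 ug/ml of DOX for 72 hours, and 1 Affymetrix array was hybridised per line and DOX state, 6 arrays in all. DOX induces the hairpin in all 3 lines, so the control line meets both the drug and a hairpin. Whether a line is 1 clone or a pool of cells is not given in the sources used here. The DOX change of a gene is its log2 intensity with DOX minus that without DOX in the same line. The shCNOT3 lines are the replicates of knockdown (n = 2), and the labels name no separate cultures behind an array. The p-values therefore cover the spread among these 6 arrays, which may be technical.

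The lysosome is the acidic compartment in which cells break down lipids, glycans and proteins. A vacuolar proton pump acidifies it, glycosidases, proteases and lipid hydrolases work in its lumen, and heavily glycosylated membrane proteins line it. Transporters such as NPC1 carry the products of digestion out, and ion channels release calcium and balance charge. Autophagy delivers cytoplasm to the lysosome: the ULK1 kinase and the BECN1 lipid kinase complex start the autophagosome, ubiquitin-like conjugation of ATG12 to ATG5 and of the LC3 and GABARAP proteins to lipid extends it, and receptors such as SQSTM1 load cargo. Many lysosomal genes carry a palindromic E-box in the promoter, the core of the CLEAR element that is bound by TFEB and its relatives MITF and TFE3.

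The genes were taken by name, not by that E-box. It is shown here because it divides the list for the comparison of the lines further on. As many lysosomal genes are known to carry it, a high share in such a list is no finding of these data. RefSeq promoter windows (GRCh38.p14), running from 250 bases before to 50 after the annotated start, were given for 31 of the 39 genes. The letters CACGTG, which read the same on both strands, were found in 10 of these 31 windows (32.3%), against 7.43% of all 27305 windows and 10.3% of the windows of genes tested on the arrays. The longer palindrome TCACGTGA, which contains the first motif, was in 6 of the 31 (19.4%). It was in 1.04% of all windows and 1.94% of those of genes tested. The full CLEAR palindrome, which contains both, was in 2 of the 31 (6.45%), in 0.381% of all and in 0.815% of those tested. In 92 windows of other lysosome and autophagy genes, described further on, the shares of the 3 motifs were 20.7%, 10.9% and 7.61%. A match is a description of the letters, not a measured binding site. The windows of 6 genes are given as 30 bases, 5′ to 3′ on the gene's strand, with the E-box in capitals. They were chosen to include both genes with the full palindrome (MCOLN1 and GAA), 2 genes that were higher with DOX in both shCNOT3 lines (CLN3 and ATP6V0D1) and 2 that were higher in shCNOT3-1 only (CTSD and CTSA).
MCOLN1, chr19:7522598-7522627, plus strand: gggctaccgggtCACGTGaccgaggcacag
GAA, chr17:80101493-80101522, plus strand: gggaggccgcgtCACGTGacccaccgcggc
CLN3, chr16:28492058-28492087, minus strand: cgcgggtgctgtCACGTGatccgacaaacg
ATP6V0D1, chr16:67481199-67481228, minus strand: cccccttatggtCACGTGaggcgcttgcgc
CTSD, chr11:1763957-1763986, minus strand: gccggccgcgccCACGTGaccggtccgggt
CTSA, chr20:45891298-45891327, plus strand: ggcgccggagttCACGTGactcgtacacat
Counted with the annotated start as base 1 and no base 0, the first capital lies at -14 in MCOLN1, -76 in GAA, -1 in CLN3, -59 in ATP6V0D1, -47 in CTSD and -25 in CTSA. GAA has a second full palindrome at -31, and LAMP1, which encodes a major lysosomal membrane glycoprotein, has 6 E-boxes in its window. The other genes with CACGTG were CD63, CLCN7 and NEU1.

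Values are deposited MAS5 intensities on a linear scale, and the median intensity per array was 64.9 to 72.8. CNOT3 itself went from 178 to 166 in shNTC, from 227 to 81.9 in shCNOT3-1 and from 228 to 46.9 in shCNOT3-2. On the log2 scale the hairpin lines averaged -1.86 ± 0.57 (SD, n = 2), with adjusted p = 0.0677 in limma. A second CNOT3 probe set gave -2.13 and -2.22 in the shCNOT3 lines, and in shNTC it went from 259 to 95.6 (-1.43). The 3′ to 5′ ratio of ACTB, a measure of RNA integrity, went from 1.58 to 1.47 with DOX in shNTC but from 1.33 to 1.42 and from 1.36 to 1.45 in the shCNOT3 lines, while that of GAPDH went from 0.980 to 0.966 in shNTC, from 0.980 to 1.03 in shCNOT3-1 and from 1.09 to 1.05 in shCNOT3-2. The part of RNA integrity in the results was not tested. All 4 epithelial markers (KRT8, KRT18, KRT19 and EPCAM) were above the filter level, with a summed intensity of 77843 to 88506.5. Of 15 markers of fibroblasts, leukocytes, macrophages and endothelium, 6 were above it. Of the 19775 genes with a probe set of their own, 12630 were. The summed intensity of those 15 went from 1623 to 1354 with DOX in shNTC, from 1281 to 1738 in shCNOT3-1 and from 1294 to 1469.76 in shCNOT3-2, and its part in the results was not tested either. In cultures measured whole, fewer cells of a kind and less RNA per cell cannot be told apart.

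NPC1, which exports cholesterol from the lysosome, was the only 1 of the 38 genes that passed the test of knockdown. Across the list the median DOX change on the log2 scale was -0.05 in shNTC, 0.19 in shCNOT3-1 and 0.03 in shCNOT3-2, beside medians of -0.01, 0.05 and 0.02 over all 12630 genes tested. In shCNOT3-1 28 of the 38 genes were higher with DOX (73.7%, against 54.5% of all genes), and in shCNOT3-2 21 (55.3%, against 51.8%). In shNTC 17 were (44.7%, against 48.8%). Genes higher in both shCNOT3 lines numbered 16 (42.1%), where 33.2% of all genes tested were. Of these 16, 13 (34.2% of the 38) were also above the shNTC change in both, against 25% of all genes. These counts go by sign at any size, for the list and for all genes. In NPC2, LAMP1, ATP6V0E1, BECN1, ATG5 and SQSTM1 the smaller of the shCNOT3 changes was only 0.02 to 0.05. Genes lower in both numbered 5 (13.2%), against 26.9%. The other 17 (44.7%, against 39.9%) differed in sign between the hairpins.

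**Figure D1:**
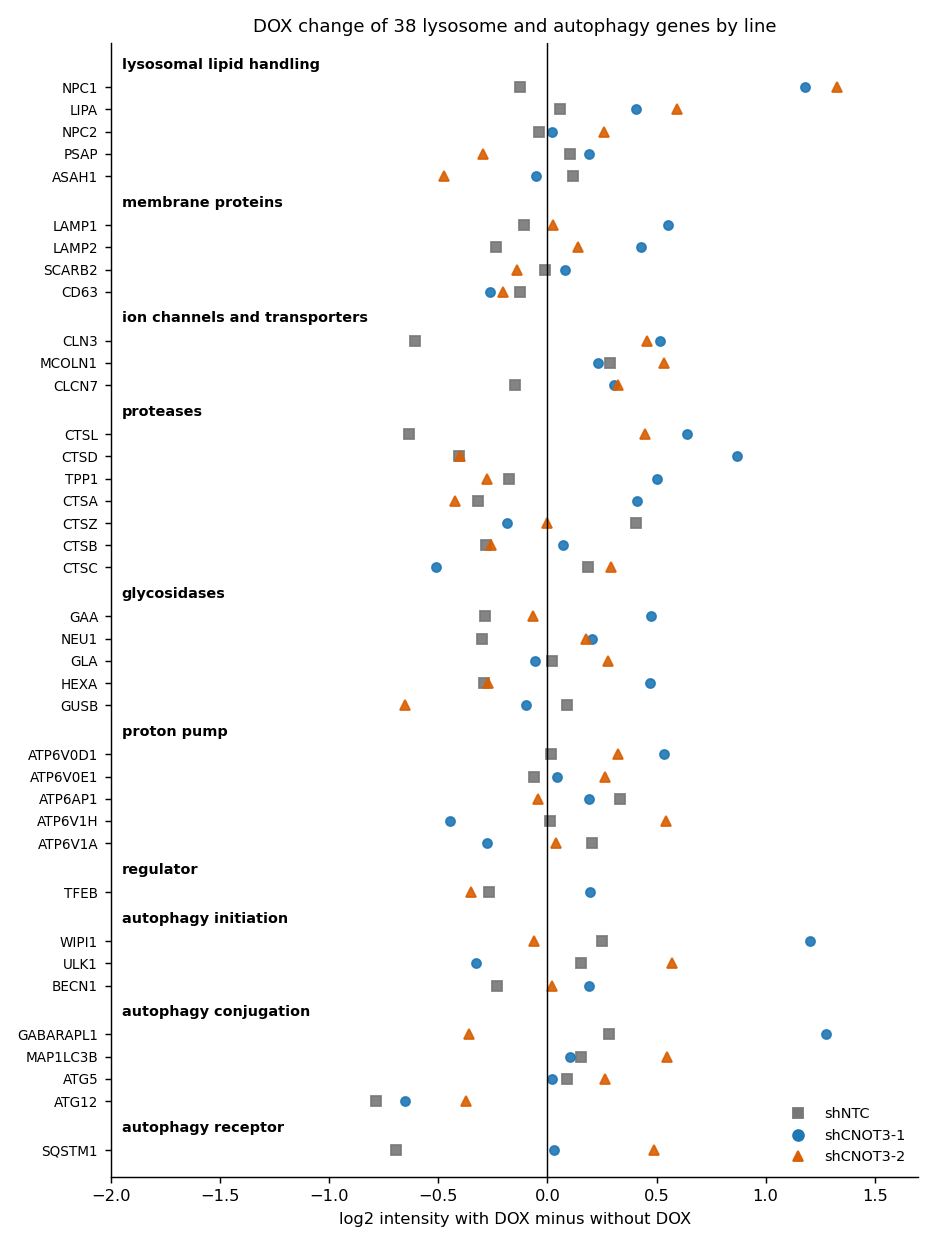
DOX change (log2 intensity with DOX minus without, x axis) of the 38 genes, grouped by role (y axis), with 1 point per line: grey squares for shNTC, blue circles for shCNOT3-1 and orange triangles for shCNOT3-2. NPC1 stands at 1.18 and 1.33 in the shCNOT3 lines and at -0.13 in shNTC, WIPI1 and GABARAPL1 are as high in shCNOT3-1 alone, and ATG12 is lower in all 3 lines on its brightest probe set.

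The test of knockdown asked whether the average DOX change in the shCNOT3 lines exceeded the spread formed by the difference between the hairpins and the DOX change of shNTC. At an adjusted p of 0.05 it called 28 of all genes (0.222%), 13 of them higher (0.103%), and 1 of the 38, NPC1. At an unadjusted p of 0.05 it gave 4 of the 38 higher (10.5%) and 0 lower, beside 7.45% and 7.08% of all genes and 14.5% in either direction. The 4 were NPC1, LIPA, CTSL and ATP6V0D1. A second test asked whether the mean change of the shCNOT3 lines differed from that of shNTC. In limma it called 0 of all genes (0%) and so 0 of the 38, while at an unadjusted p of 0.05 it gave 1061 of all genes (8.4%), 4.48% higher. Of the 38, 4 (10.5%) were higher by that measure and 0 lower: NPC1, CTSL, SQSTM1 and CLN3.

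Among the 5 genes of lysosomal lipid handling, NPC1 rose in the shCNOT3 lines. Its intensity went from 3011 to 6822 in shCNOT3-1 and from 2430 to 6104 in shCNOT3-2, and from 2580 to 2365 in shNTC. Both shCNOT3 arrays with DOX lie above the 4 other arrays, which run from 2365 to 3011. The intensity ratio was 2.27 and 2.51 in the shCNOT3 lines against 0.917 in shNTC. The mean log2 change was 1.25 ± 0.11 (SD, n = 2), with a standard error of 0.17 and adjusted p = 0.0230 in limma. Against the change in shNTC the difference was 1.38 ± 0.31 (SE), with adjusted p = 0.294. NPC1 was 1 of 96 genes (0.76%) at least 2-fold higher in both shCNOT3 lines, ranked 111 of 12630 by the mean log2 change and 15 by p. It stood at percentile 97.8 and 98.4 of all DOX changes in the hairpin lines and 37.0 in shNTC. The call rests on both hairpins, with adjusted p = 0.0674 without shCNOT3-1 and 0.0703 without shCNOT3-2. A second NPC1 probe set above the filter level, read at far lower intensity, went from 150 to 144 in shCNOT3-1, from 94.7 to 90.0 in shCNOT3-2 and from 113 to 106 in shNTC, a mean log2 change of -0.07. Of the dim NPC1 probe sets, 1 went from 22.2 to 40.2 and from 31.7 to 80.4 in the shCNOT3 lines and from 52.9 to 31.2 in shNTC, and the other went from 14.9 to 5.45, from 1 to 5.16 and from 17.98 to 5.13 in that order. With the mean over all NPC1 probe sets the log2 change was 0.60, with adjusted p = 0.563.

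The 250 bases before the annotated NPC1 start (GRCh38.p14, chr18:23586507-23586756, minus strand, given 5′ to 3′) are shown because NPC1 carries the call, and neither they nor the 50 bases after the start contain CACGTG.
NPC1: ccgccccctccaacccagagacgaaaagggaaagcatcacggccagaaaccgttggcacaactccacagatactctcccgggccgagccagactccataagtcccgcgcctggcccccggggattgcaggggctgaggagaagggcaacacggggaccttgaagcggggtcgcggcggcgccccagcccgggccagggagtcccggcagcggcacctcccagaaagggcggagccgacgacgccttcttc

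The neighbours of NPC1 in lipid handling gave smaller values. LIPA, the acid lipase that frees cholesterol from its esters, went from 5927 to 7859.85 in shCNOT3-1, from 4838 to 7308 in shCNOT3-2 and from 5695 to 5922 in shNTC. The DOX arrays of the shCNOT3 lines were its highest, with a mean log2 difference of 0.50 ± 0.13 (SD, n = 2) and adjusted p = 0.196 in limma. NPC2, which hands cholesterol to NPC1, went from 7418 to 7521 in shCNOT3-1, from 7060.46 to 8441 in shCNOT3-2 and from 7425 to 7238 in shNTC. PSAP, the precursor of the saposins that help sphingolipid hydrolases, gave 0.19 and -0.29. ASAH1, the acid ceramidase, went from 8737 to 8432, from 7577 to 5459.6 and, in shNTC, from 6852 to 7421, and was the only 1 of these 5 lower in both.

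Of the 4 abundant membrane proteins, LAMP1 and LAMP2 are the glycoproteins that coat the inner face of the lysosomal membrane. On their brightest probe sets both were higher with DOX in both shCNOT3 lines and lower in shNTC. LAMP1 went from 7894 to 11581 in shCNOT3-1, from 8255 to 8409.55 in shCNOT3-2 and from 9568 to 8872 in shNTC, with adjusted p = 0.455. LAMP2 went from 3352 to 4517, from 4566 to 5028 and from 5072 to 4314 in the same order, with adjusted p = 0.494, and its groups with and without DOX overlap. On these probe sets the larger value of both genes was in shCNOT3-1. The other LAMP1 probe sets above the filter level gave log2 differences of 0.91 in shCNOT3-1 and 0.20 in shCNOT3-2, 0.25 and -0.02, and -0.06 and -0.95. Those of LAMP2 gave 0.05 and -0.79, 0.08 and -0.02, and -0.12 and -0.29. CD63, a tetraspanin of late endosomes, was lower in all 3 lines, from 16048 to 13393, from 14459 to 12543 and, in shNTC, from 16581 to 15222. SCARB2, the receptor that carries glucocerebrosidase to the lysosome, went from 3619 to 3824, from 3458 to 3136 and, in shNTC, from 4372 to 4339.

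On their brightest probe sets all 3 channel and transporter genes were higher with DOX in both shCNOT3 lines, with log2 differences of 0.23 to 0.54. None passed the adjusted threshold. CLN3, the membrane protein lost in juvenile Batten disease, went from 1062 to 1520.23 in shCNOT3-1, from 1076 to 1477 in shCNOT3-2 and from 1104 to 724 in shNTC. The 3 arrays without DOX lie within 1062 and 1104, with both shCNOT3 arrays with DOX above and the shNTC array with DOX below them. The mean log2 difference was 0.49 ± 0.04 (SD, n = 2), with adjusted p = 0.380, and the difference from shNTC was 1.09 ± 0.37 (SE), with adjusted p = 0.469 (unadjusted 0.0145) in limma. A second CLN3 probe set gave 0.69 and 0.41 on the log2 scale in the hairpin lines but -0.04 in shNTC. MCOLN1, the lysosomal calcium channel TRPML1, went from 298 to 350.6 in shCNOT3-1, from 269 to 391 in shCNOT3-2 and from 277 to 339 in shNTC, so the control line was higher as well. CLCN7, the chloride-proton exchanger, went from 948 to 1172, from 715 to 895 and, in shNTC, from 848 to 764. A second CLCN7 probe set above the filter level gave log2 differences of 0.55 in shCNOT3-1, -0.69 in shCNOT3-2 and -0.61 in shNTC.

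The 7 proteases did not keep 1 pattern across the hairpins. Their median DOX change was -0.28 in shNTC, 0.41 in shCNOT3-1 and -0.26 in shCNOT3-2, and 5 of the 7 had opposite signs in the hairpin lines. CTSL, cathepsin L, was the only 1 higher in both: it went from 8870.45 to 13808 in shCNOT3-1, from 9198 to 12542 in shCNOT3-2 and from 9880 to 6371 in shNTC. Its DOX arrays were the highest of the 6 in the shCNOT3 lines and the lowest in shNTC. The mean log2 difference of the hairpins was 0.54 ± 0.13 (SD, n = 2), with adjusted p = 0.264, and the difference from shNTC was 1.18 ± 0.24 (SE), with adjusted p = 0.242 (unadjusted 0.000765) in limma. In the control line itself the log2 difference of CTSL was -0.63.

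CTSD, cathepsin D, showed the other pattern: it went from 829 to 1515 in shCNOT3-1, from 907 to 687 in shCNOT3-2 and from 888 to 669.6 in shNTC. The 3 arrays without DOX were close together, and shCNOT3-2 moved with the control line. The same signs were seen for CTSA, the protective carboxypeptidase of the sialidase complex, which went from 3257 to 4335, from 3484 to 2595 and, in shNTC, from 3113 to 2495. TPP1, the tripeptidyl peptidase, went from 2105 to 2986 in shCNOT3-1, from 1486 to 1227 in shCNOT3-2 and from 1832 to 1623 in shNTC. CTSB, cathepsin B, went from 6216 to 6523, from 6029 to 5036 and, in shNTC, from 6490.39 to 5349.56. CTSC, which activates serine proteases, ran the other way on its brightest probe set. That probe set went from 5666 to 3976 in shCNOT3-1, from 4788 to 5863 in shCNOT3-2 and from 5605 to 6368 in shNTC. The other CTSC probe sets above the filter level gave different values. In shCNOT3-1 and shCNOT3-2 their log2 differences were 0.13 and 0.16, -0.06 and 0.15, and -0.15 and -0.51. CTSZ went from 5222 to 4589.79 in shCNOT3-1, from 5117 to 5108 in shCNOT3-2 and from 5297 to 7021 in shNTC.

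The 5 glycosidases measured of 6 had medians of -0.29 in shNTC, 0.20 in shCNOT3-1 and -0.06 in shCNOT3-2, and 2 of them, HEXA and GAA, were higher in shCNOT3-1 and lower in shCNOT3-2. HEXA, the α subunit of β-hexosaminidase, went from 2853 to 3952 in shCNOT3-1, from 2911 to 2412 in shCNOT3-2 and from 2842 to 2326 in shNTC. GAA, the acid α-glucosidase that degrades glycogen, gave log2 differences of 0.48, -0.06 and -0.29 in that order. NEU1, the lysosomal sialidase, was higher in both hairpin lines, from 1158 to 1333 and from 979.972 to 1107, and lower in shNTC, from 1009 to 818. GUSB, β-glucuronidase, was lower in both, from 2486 to 2325 and from 2375 to 1511, and went from 2599 to 2766 in shNTC. GLA, α-galactosidase A, gave -0.06 and 0.28. Of the 12 luminal enzymes in these classes, 6 were higher in shCNOT3-1 and lower in shCNOT3-2 (50.0%), a combination shown by 21.3% of all genes tested. It was shown by 12 of the 38 genes (31.6%). Of 27 other lysosomal hydrolases tested, part of the other pathway genes described further on, 12 showed it (44.4%). This count was not among the planned results.

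**Figure D2:**
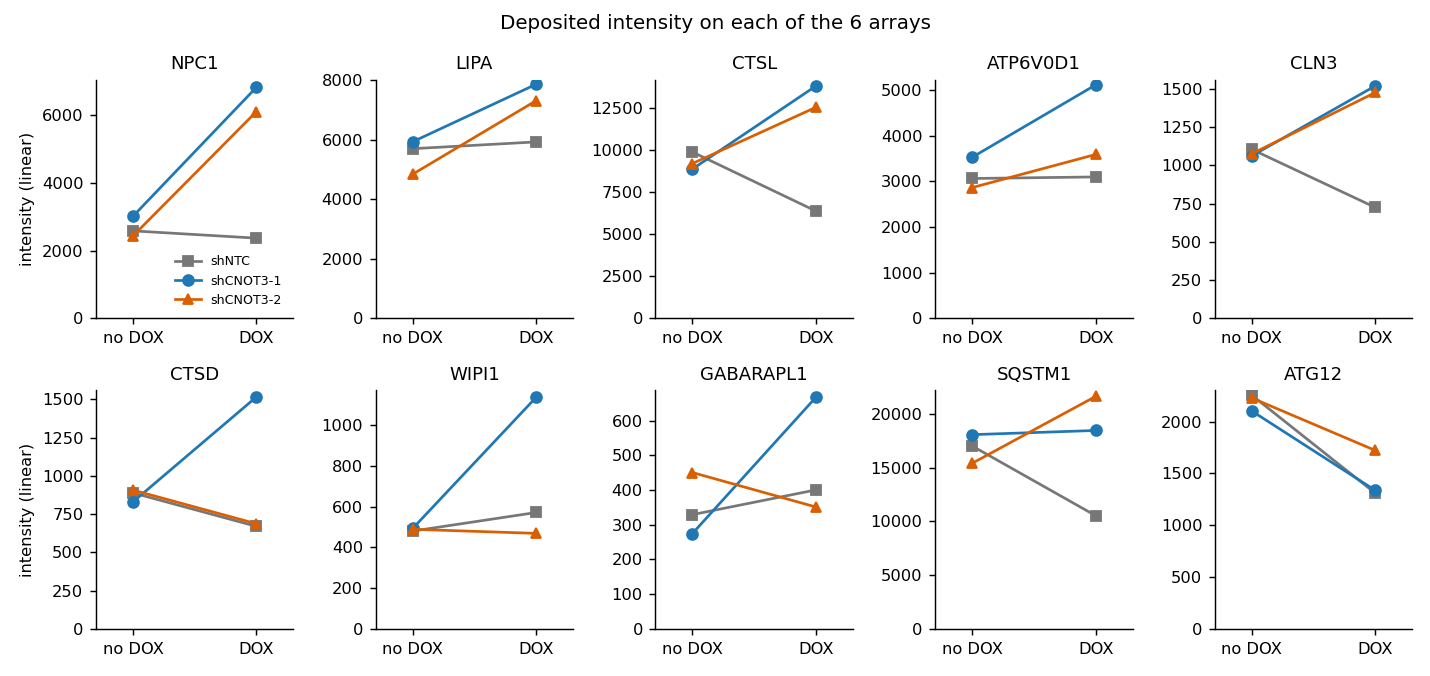
Deposited intensity (y axis, linear, from 0) without and with DOX (x axis) for 10 genes, 1 line joining the 2 arrays of each stable line. NPC1, LIPA, CTSL, ATP6V0D1 and CLN3 are higher with DOX in both shCNOT3 lines, CTSD, WIPI1 and GABARAPL1 only in shCNOT3-1 of these 2, SQSTM1 is lowest in shNTC with DOX, and ATG12 is lower in all 3 lines on its brightest probe set.

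Subunits of the proton pump were mixed. ATP6V0D1, which joins the membrane sector to the cytosolic sector, went from 3529 to 5116 in shCNOT3-1, from 2864 to 3590.03 in shCNOT3-2 and from 3063 to 3098 in shNTC. Both DOX arrays of the hairpin lines were its highest, with a mean log2 difference of 0.43 ± 0.15 (SD, n = 2) and adjusted p = 0.289 in limma. ATP6V0E1, a small subunit of the membrane sector, went from 10536 to 10881 and from 10368 to 12451 in the hairpin lines and from 10656 to 10224 in shNTC. In the cytosolic sector, ATP6V1H, a regulatory subunit, went from 1674 to 1227 in shCNOT3-1 but from 1687 to 2455 in shCNOT3-2, with 1402 and 1413 in shNTC. ATP6V1A, the catalytic subunit, gave -0.28 and 0.04, and the accessory protein ATP6AP1 gave 0.19 and -0.04, with 0.33 in shNTC.

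TFEB, the transcription factor that binds the CLEAR element, was read at low intensity and gave no call. It went from 122 to 139.743 in shCNOT3-1, from 155 to 121 in shCNOT3-2 and from 204 to 169.612 in shNTC, with adjusted p = 0.950 in limma. The shNTC arrays were the highest of their DOX state.

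Among the 8 autophagy genes, read by their brightest probe sets, 4 were higher in both shCNOT3 lines (BECN1, ATG5, MAP1LC3B and SQSTM1). ATG12 was lower in both, and 3 had opposite signs. BECN1, the scaffold of the initiating lipid kinase, went from 2332 to 2659 and from 1952 to 1979 in the hairpin lines and from 2262 to 1929 in shNTC. ATG5, the partner to which ATG12 is joined, went from 2651 to 2688, from 2050.03 to 2460.39 and, in shNTC, from 2651 to 2824. MAP1LC3B, which marks the autophagosome membrane, went from 2134 to 2296 in shCNOT3-1, from 2409.95 to 3519.71 in shCNOT3-2 and from 2459 to 2733 in shNTC. The other probe sets of these 3 genes above the filter level were not higher in both. That of BECN1 gave log2 differences of 0.38 in shCNOT3-1 and -0.25 in shCNOT3-2. Those of ATG5 gave -0.20 and -0.48, and -0.16 and 0.11, and that of MAP1LC3B gave -0.03 and -0.21. ULK1 gave -0.33 in shCNOT3-1 and 0.57 in shCNOT3-2, with 0.15 in shNTC.

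SQSTM1, the p62 receptor that binds ubiquitinated cargo, differed from the control line mainly through the control line itself. It went from 16998 to 10525 in shNTC, from 18053 to 18442 in shCNOT3-1 and from 15393 to 21608 in shCNOT3-2. The shNTC array with DOX was the lowest of the 6. The mean log2 difference of the hairpins was 0.26 ± 0.32 (SD, n = 2), with adjusted p = 0.618, and the difference from shNTC was 0.95 ± 0.24 (SE), with adjusted p = 0.330 (unadjusted 0.00285) in limma. A second SQSTM1 probe set was also lower with DOX in shNTC, from 1309 to 528, and higher in the shCNOT3 lines, from 1514 to 2399.65 and from 1277 to 1834, here with the larger value in shCNOT3-1. Of the 3 other probe sets above the filter level, 1 gave log2 differences of -0.50 in shNTC and 0.08 in both hairpin lines. Another was higher in shNTC too (0.13, against 0.32 and 0.28), and the third gave -0.52 in shNTC but -0.79 in shCNOT3-1 and 0.32 in shCNOT3-2. On its brightest probe set ATG12, the ubiquitin-like conjugate, was lower with DOX in every line, from 2102 to 1336 and from 2229 to 1722 in the shCNOT3 lines and from 2254 to 1309 in shNTC. The lowest log2 value of that probe set, -0.78, was in the control line, and the difference from shNTC was 0.27 ± 0.36 (SE). The other ATG12 probe sets turned that order round: 1 gave -1.12 and -1.10 in the hairpin lines and -0.62 in shNTC, and the other -0.74 and -0.15 and, in shNTC, 0.37.

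WIPI1 and GABARAPL1 gave the largest values of the list in shCNOT3-1, above that of NPC1, and neither was higher with DOX in shCNOT3-2. WIPI1, which binds the phosphoinositide of the forming autophagosome, went from 493 to 1137 in shCNOT3-1, from 489 to 469 in shCNOT3-2 and from 480.4 to 571 in shNTC. The shCNOT3-1 array with DOX stands alone and the 5 others lie within 469 and 571. GABARAPL1, a relative of LC3, went from 275 to 667 in shCNOT3-1, from 450.25 to 351.008 in shCNOT3-2 and from 329 to 400.248 in shNTC. Here too the shCNOT3-1 array with DOX was the highest. A second probe set of GABARAPL1 gave log2 differences of 1.08 and -0.22 in the hairpin lines but also 0.90 in shNTC, and a second one of WIPI1 gave 0.31 and -0.01, with 0.25 in shNTC.

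Because of these patterns, a test of the difference between the hairpins was added after the values had been seen. Its only measure of spread beside limma's prior is the DOX change of shNTC. None of all genes was called at an adjusted p of 0.05 (0%), and 810 (6.41%) had an unadjusted p under 0.05. Among the 38 these were 6 (15.8%). GABARAPL1 was higher in shCNOT3-1 by 1.64 ± 0.48 (SE) on the log2 scale, with adjusted p = 0.472 and unadjusted p = 0.00624. CTSD (1.27), WIPI1 (1.26) and CTSA (0.84) had the same direction, and CTSC (-0.80) and ATP6V1H (-0.99) the other. Each gene was read by its brightest probe set here, and the other CTSC probe sets above the filter level showed no difference of that size. None of these differences passes the adjusted threshold in limma. Across genes, the DOX changes of the hairpins correlated at r = 0.0707 over the 38 genes (-0.139 without NPC1), 0.0855 over 111 other genes of the pathway and 0.261 over all genes tested. The 2 hairpins share no array here, and genes are not independent replicates.

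**Figure D3:**
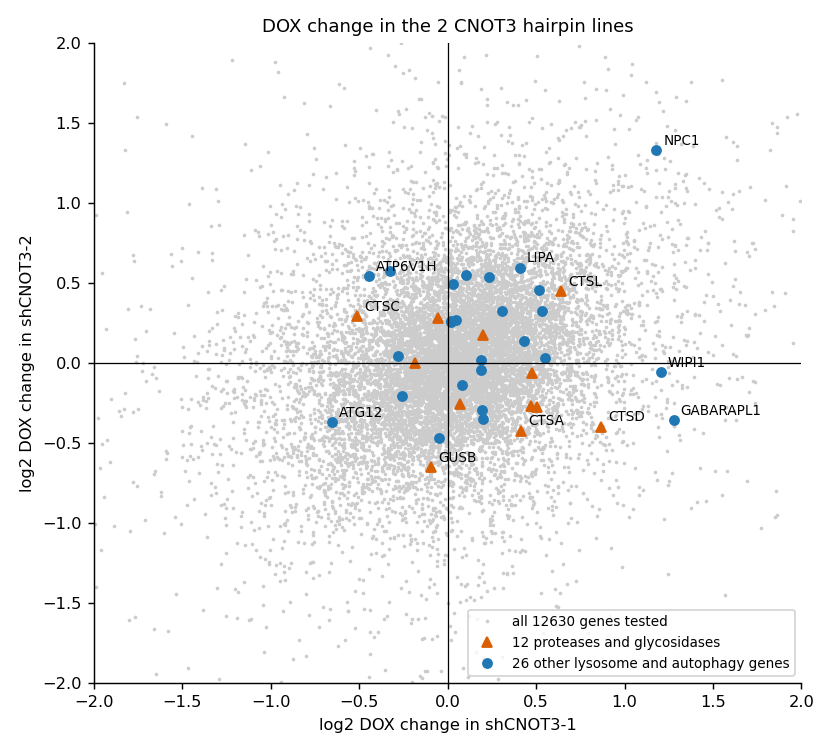
DOX change in shCNOT3-1 (x axis) against shCNOT3-2 (y axis), both log2 intensity with DOX minus without, for all 12630 genes tested (grey, those beyond ±2 not drawn), 12 proteases and glycosidases (orange triangles) and 26 other genes of the list (blue circles). NPC1 lies at the upper right apart from the rest, GABARAPL1, WIPI1 and CTSD lie far right near or under 0 on the y axis, and 6 of the 12 enzymes are at the lower right.

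Different probe sets of a gene often gave different values, which bears on the small differences above. The 38 genes had 97 probe sets annotated to them alone, 87 of them above the filter level. Over those 87, the median DOX change was -0.06 in shNTC, 0.08 in shCNOT3-1 and -0.06 in shCNOT3-2, with 24 higher in both hairpin lines, 21 lower in both and 42 of opposite sign. So the excess of higher over lower seen with the brightest probe set of each gene (16 and 5) is nearly gone over these 87 (24 and 21). Over all genes tested, each by its brightest probe set, 33.2% were higher and 26.9% lower in both hairpin lines. The same shares over all probe sets of the array were not computed. Of 23 genes with more than 1 probe set above the filter level, 14 had probe sets whose mean change in the shCNOT3 lines differed in sign. The widest were HEXA, from -0.12 to 1.37, NPC1, from -0.07 to 1.25, LAMP1, from -0.51 to 0.56, and ATP6V0E1, from -0.69 to 0.16. The HEXA probe set at 1.37 lay just above the filter level, going from 12.5 to 89.6 in shCNOT3-1 and from 100.392 to 99.6 in shCNOT3-2. The others ran from -0.37 to 0.28 for LAMP2, from -0.07 to 0.31 for CLCN7, from -0.09 to 0.61 for CTSZ, from -0.16 to 0.21 for CTSB and from -0.33 to 0.15 for CTSC. TPP1 ran from -0.26 to 0.11, SCARB2 from -0.33 to 0.27, MAP1LC3B from -0.12 to 0.33, ATG5 from -0.34 to 0.14 and SQSTM1 from -0.23 to 0.59. Both probe sets of CLN3 (0.49 and 0.55), both of WIPI1, both of GABARAPL1 and all 3 of ATG12 (-1.11 to -0.44) had 1 sign of the mean.

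**Figure D4:**
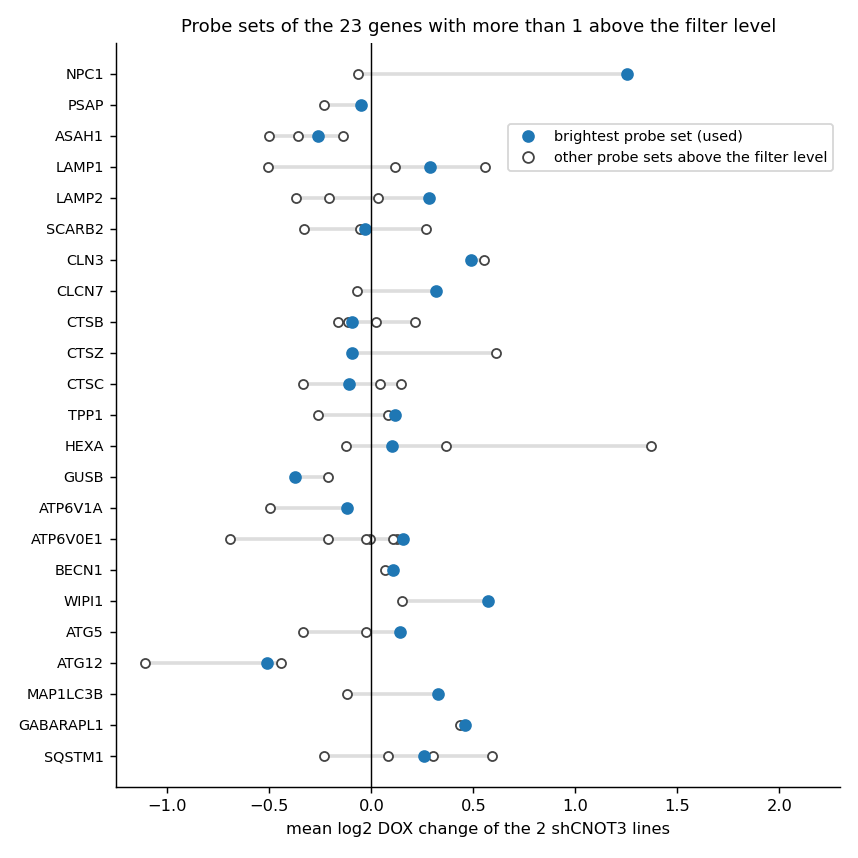
Mean DOX change of the shCNOT3 lines (x axis, log2) for each probe set above the filter level, in the 23 genes that have more than 1 (y axis); filled blue marks the brightest probe set, which was used, and open circles the others. The points of 14 genes lie on both sides of 0, with the widest spread for HEXA and NPC1.

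Other genes of the same pathways gave no call in the test of knockdown, which called 0.222% of all genes tested. Of 124 listed, 111 were tested, 10 had no probe set of their own and LAMP3, ATP6V1B1 and ATP6V1C2 were too dim. Their medians were -0.02 in shNTC, 0.14 in shCNOT3-1 and 0.04 in shCNOT3-2, and 37 (33.3%) were higher and 21 (18.9%) lower in both hairpin lines. At an unadjusted p of 0.05, 10 were higher and 4 lower, 12.6% of the 111 beside 14.5% of all genes. The lowest by the smaller hairpin change was ARSB, arylsulfatase B, with log2 differences of -1.08 and -1.17 in the shCNOT3 lines and 0.40 in shNTC, and adjusted p = 0.0911. It was followed by CTSK, with -0.76 and -0.48 and, in shNTC, 0.10, and HGSNAT, with -0.65, -0.29 and 0.44 in that order. The highest were IDUA, the α-iduronidase, with 0.94 and 0.65, and PIK3R4, a subunit of the BECN1 lipid kinase complex, with 0.50 and 0.45. MITF, a relative of TFEB, came next with 0.43 and 1.10. In shNTC IDUA gave -0.25, PIK3R4 0.03 and MITF 0.31, so MITF was higher with DOX in the control line too. Neither TFEB nor MITF passed the test (adjusted p = 0.198 for MITF).

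Set against the promoter letters, the 10 genes with CACGTG had median DOX changes of -0.22 in shNTC, 0.44 in shCNOT3-1 and 0.10 in shCNOT3-2. Of these 10, 2 were higher with DOX in shNTC, 9 in shCNOT3-1 and 6 in shCNOT3-2. CD63 was the exception in shCNOT3-1, and NPC1, LIPA and CTSL were not among the 10. The 20 measured genes with a window but without CACGTG had medians of 0.04, 0.09 and 0.14, and 11, 14 and 11 of them were higher. Over all genes tested, 1058 with CACGTG had medians of -0.05, 0.05 and 0.03, and 9254 without it -0.01, 0.05 and 0.01. The 18 other pathway genes with it that were tested had medians of -0.02, 0.12 and -0.13, and the 67 without it -0.02, 0.18 and 0.04, so among these the genes with the letters were not the higher ones in shCNOT3-1. These are descriptions of 1 list with no test.

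**Figure D5:**
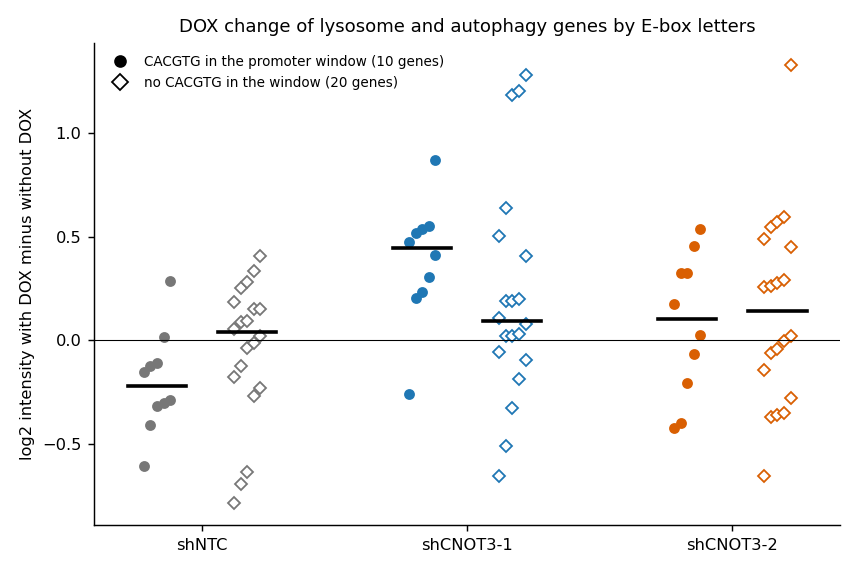
DOX change (y axis, log2) in each line (x axis) of the 10 genes with CACGTG in the promoter window (filled circles) and the 20 without (open diamonds), with a bar at each median. In shCNOT3-1 the genes with the letters have a median of 0.44 and 9 of 10 lie above 0, in shNTC 8 of 10 lie below 0, and in shCNOT3-2 the medians are 0.10 and 0.14.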

How the data were processed

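The authors deposited linear probe set intensities. The submitters' processing notes name MAS5, and the settings used are not given in these sources. Per the values, every array has the same trimmed mean, 500.1, so differences are relative to the array's total. Intensities were taken to log2 after adding 1. Each gene was read by its brightest probe set annotated to it alone, and genes whose mean log2 was below the probe set median, 5.96 (intensity 61.4), were left out, which left 12630. GEO's platform annotation lists 41097 of the 54675 probe sets with 1 gene, 1801 with several and 11777 with none.

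Tests used limma 3.58.1 in R 4.3.3 (2-sided, intensity-dependent prior, Benjamini-Hochberg over all genes tested, threshold 0.05). The stable line was a block, since the labels show each line with and without DOX, and knockdown was 1 term, with 2 residual degrees of freedom. Adding a DOX term tested the change beyond shNTC, with 1. The procedure was also run on simulated data. Those had independent noise and no differences between lines, so they cannot show that the p-values hold for these arrays. The number of arrays limits the precision.

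Per-array values were given for called genes, for up to 4 genes per role by the smaller hairpin change and for genes whose probe sets differ in sign. Those of CTSD, CTSA, TFEB, WIPI1, GABARAPL1 and ATP6V1H, and the test between hairpins, were added after the values were seen. The genes and lists were chosen with earlier results of these data known. Promoter letters were read from RefSeq windows, matched by symbol, with Python 3.11.15.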

Additional observations from a re-analysis of the deposited data

How the results depend on the processing

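The genes called for knockdown, 28 in all, numbered 59 with arrays scaled to a common median, 64 with a constant of 64, 54 with the filter at the 60th percentile, 56 with probe sets not ending in _x_at or _s_at, 6 with probe sets averaged per gene, 3 with no filter, 0 with no intensity trend and 191 with no replicate block, and 39 to 62 with 1 line left out. NPC1 was called in 8 of 13 alternatives, with log2 values of 0.60 to 1.33 and adjusted p of 0.00484 to 0.563. The count called among the 38 genes was 0 with no filter (NPC1 adjusted p = 0.0665), with probe sets averaged (0.563) and with no trend (0.260), and 0 to 1 with 1 line left out. Beyond shNTC, 10 genes were called with a common median and 0 of the 38. Genes higher in both hairpin lines numbered 9 instead of 16 with probe sets averaged. The average takes in every probe set of a gene, also those below the filter level, such as a LIPA probe set at -0.82. Of the other pathway genes, ARSB (-1.10, adjusted p = 0.0212) was called with no replicate block and ATP6AP2 (-1.28, 0.0300) without shCNOT3-2, 1 each. With no block, CNOT3 passed (-1.66, 0.0341), and the difference between hairpins called 160 genes, 1 of them of the list (WIPI1, adjusted p = 0.0493). Averaging probe sets reversed LIPA (-0.16), LAMP2 (-0.065), CLCN7 (-0.029), CTSZ (0.26), ATP6V1H (-0.57), ATP6V0E1 (-0.078), BECN1 (-0.0091) and ATG5 (-0.074). Probe sets of the other suffixes reversed LAMP2 (-0.37), CTSB (0.024), ATP6V0E1 (-0.69) and SQSTM1 (-0.23). No block reversed CTSA (0.13) and ULK1 (-0.0053). With 1 line left out, leaving out shCNOT3-1 reversed CTSD (-0.40 to 0.87), CTSC (-0.51 to 0.29), TPP1 (-0.28 to 0.50), HEXA (-0.27 to 0.47), GAA (-0.064 to 0.48), ATP6V1A (-0.28 to 0.042), ATP6AP1 (-0.044 to 0.19), WIPI1 (-0.0604 to 1.20) and GABARAPL1 (-0.36 to 1.28), and leaving out shCNOT3-2 reversed PSAP (-0.29 to 0.19), SCARB2 (-0.14 to 0.0796), CTSA (-0.42 to 0.41), CTSB (-0.26 to 0.069), GLA (-0.056 to 0.28), ATP6V1H (-0.45 to 0.54), TFEB (-0.35 to 0.20) and ULK1 (-0.33 to 0.57), with the lowest and highest values in brackets. These last brackets hold the DOX changes of both shCNOT3 lines. With 1 of those lines left out, the knockdown term is the DOX change of the other. The 17 genes of opposite sign therefore reverse by construction. Apart from lines left out, the other 368 single-gene values kept their direction and side of the threshold. The cause of the other shifts was not tested, and the change beyond shNTC could not be fitted with a line left out.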
